A study of Mus musculus with 24 samples.

Results

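Liver cells carrying CD11b and Ly6G were compared on postoperative day (POD) 4 between mice that had lost 70% of the liver (hepatectomy) and mice that had a midline laparotomy without resection (sham). The comparison uses 6 of the 24 RNA-seq libraries of the series, 3 from each operation, chosen by operation and day alone, and covers all genes. The animals of both groups were wild-type male BALB/C mice of 8 weeks. The livers were digested with collagenase, the non-parenchymal cells were kept, and the CD11b+Ly6G+ fraction, labelled G-MDSCs (granulocytic myeloid-derived suppressor cells), was collected on magnetic columns before poly-A RNA-seq. The labels number the replicates without saying whether each was a separate animal or a pool. The p-values therefore measure a spread between libraries of the same group that may be technical. Except where stated, that spread was estimated over all 24 libraries and not over these 6 alone.

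G-MDSCs share their surface markers with neutrophils and are known for restraining T cells and for releasing factors that act on blood vessels. The regenerating mouse liver passes through a wave of hepatocyte division in the first days after resection, followed by division of its sinusoidal endothelial cells and by deposition and remodelling of extracellular matrix. Stellate cells are the main liver source of the fibrillar collagens of types I and III, whereas endothelial cells make much of the type IV collagen of vessel walls. Entry into S phase depends on the E2F factors, which act on promoters of genes for DNA replication.

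The fraction was not of 1 composition on POD4. Levels are given in CPM, each count being divided by a library total scaled by the TMM method. Ly6g and Itgam (CD11b), the genes of the 2 proteins used for the sort, ran from 25.4 to 1095 CPM and from 275 to 3990 CPM, with the lowest values in sham library 1 and the highest in sham library 3. Elane and Mpo, which mark immature neutrophils, had at most 21 counts in any library. Kdr, a receptor for vascular endothelial growth factor, stood at 324, 2404 and 1783 CPM in hepatectomy libraries 1, 2 and 3, and at 2679, 113 and 197 CPM in sham libraries 1, 2 and 3. Cxcr2, the neutrophil receptor for the chemokines that call these cells out of the marrow, stood at 3154, 654 and 893 CPM after hepatectomy and at 529.9, 2714 and 3447 CPM after sham. Hepatectomy library 1 and sham libraries 2 and 3 were thus high in neutrophil and low in endothelial transcripts, and the other 3 libraries were the reverse, so the operations overlapped in both.

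The mean log2(CPM + 1) of 19 sinusoidal endothelial markers was 7.48, 10.02 and 9.70 after hepatectomy and 10.28, 5.99 and 6.70 after sham. The same measure over 20 neutrophil markers was 10.65, 7.91 and 8.50 after hepatectomy and 7.34, 10.07 and 11.61 after sham. A first principal component that held 80.7% of the variance of these 6 libraries parted hepatectomy library 1 and sham libraries 2 and 3 from the others. The means of 19 Kupffer cell and macrophage markers lay close together, from 7.35 to 7.71 after hepatectomy and from 7.26 to 7.91 after sham. Single markers did not. Clec4f was wholly below after hepatectomy, at 286, 349 and 361 CPM against 388, 953 and 437 CPM. Marco was wholly above, and Mrc1 was highest in the libraries high in endothelial transcripts. In bulk RNA, fewer cells of a type and less RNA per cell cannot be told apart. The totals were 14777974, 16660194 and 16599799 counts after hepatectomy and 10390216, 10964769 and 11509613 after sham, so depth did not overlap between the operations.

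**Figure D1:**
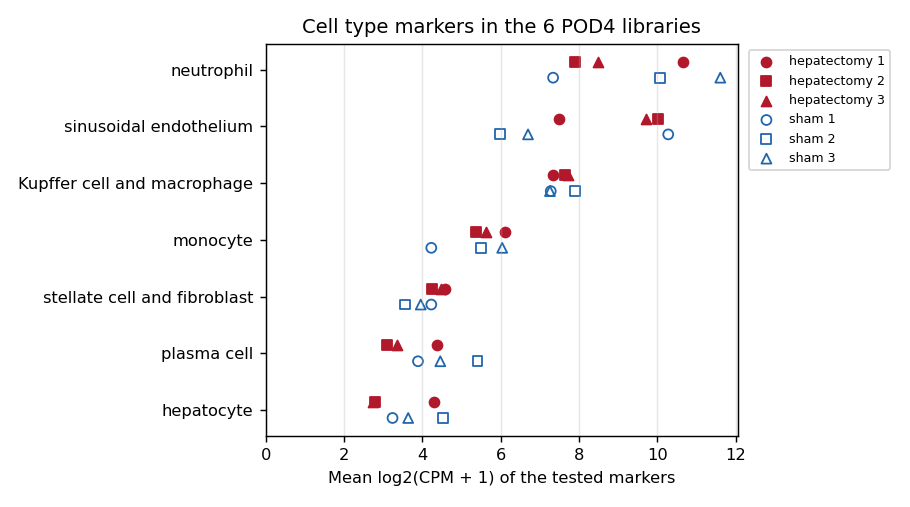
Mean log2(CPM + 1) of the tested markers of 7 cell types (horizontal axis) in each of the 6 POD4 libraries, with filled red symbols for hepatectomy, open blue symbols for sham, and the symbol shape giving the replicate number. Neutrophil and sinusoidal endothelial markers run in opposite directions across the libraries, and the operations overlap in both.

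With this spread between libraries, edgeR's quasi-likelihood test with Benjamini-Hochberg adjustment called 0 of 14325 genes higher (0%) and 0 lower (0%) after hepatectomy at an adjusted p under 0.05. At an unadjusted p under 0.05 there were 415 genes higher (2.9% of those tested) and 274 lower (1.91%). DESeq2 called 30 genes higher and 4 lower. In 385 genes (2.69%) every hepatectomy library lay above every sham library, and in 340 (2.37%) every one lay below. The 689 genes at an unadjusted p under 0.05 became 1587 without hepatectomy library 1 and 3941 without sham library 1, and 382 without hepatectomy library 2 and 322 without hepatectomy library 3. The values below are therefore given library by library, and no gene is described as changed at POD4 unless a test is named that it passed.

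The genes nearest to the threshold were Col3a1 and Thy1, the latter a surface protein of fibroblasts. Col3a1 encodes the chain of type III collagen (chr1:45311538-45349706, plus strand, GRCm38). Its level was 99.4, 46.8 and 86.7 CPM after hepatectomy and 14.3, 12.6 and 25.9 CPM after sham. The operations did not overlap, and the fitted difference was 2.14 ± 0.35 (SE) on the log2 scale, with an adjusted p of 0.0592 in edgeR's quasi-likelihood test. Leaving out hepatectomy library 2 or sham library 3 took Col3a1 past the threshold, and over all libraries left out in turn its adjusted p ran from 0.0280 to 0.637. The difference was 2.23 among the 3 libraries with many endothelial transcripts and 2.37 among the 3 with few. The first sets hepatectomy libraries 2 and 3 against sham library 1 alone and the second hepatectomy library 1 alone against sham libraries 2 and 3, so in each 1 library is assumed to vary like the other groups, whose spread the fit uses.

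Col1a1 and Col1a2 encode the 2 chains of type I collagen. Col1a1 (chr11:94936224-94953042, plus strand) was measured at 70.6, 23.2 and 44.7 CPM after hepatectomy and at 4.25, 5.63 and 20.8 CPM after sham. Its lowest hepatectomy library lay just above its highest sham library, and the difference of 2.18 ± 0.52 had an adjusted p of 0.422 in the same edgeR test. Without sham library 3 it passed the threshold. Col1a2 (chr6:4504814-4541544, plus strand) stood at 58.7, 22.1 and 37.3 CPM against 9.15, 10.3 and 19.9 CPM, again without overlap, with a difference of 1.59 ± 0.36. Of the 6 libraries, hepatectomy library 1 had the most of all 3 collagen transcripts and was poor in endothelial transcripts.

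Thy1, a surface glycoprotein of fibroblasts and T cells, had the lowest p of all genes and lies below the level of 5 CPM that the naming rule required, so it was chosen after its values were seen. It was found at 2.59, 3.40 and 3.37 CPM after hepatectomy and at 0.709, 0.245 and 0.476 CPM after sham. Again the operations did not overlap, with a difference of 2.64 ± 0.43 and an adjusted p of 0.0592 in edgeR's test.

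The list of 40 tested matrix and remodelling genes had 11 members at an unadjusted p under 0.05, all higher after hepatectomy as 2.9% of all genes were, and 37 members with a difference above 0, where 48.6% of all genes had one. Its median difference was 1.06 on the log2 scale beside -0.02 for all genes tested. The count of 11 became 19 without sham library 1, where 3029 of 14651 genes were higher at that p. It became 7 without sham library 2, where 280 of 14630 genes were. Fbn1, which encodes fibrillin of the elastic microfibrils, stood at 6.18, 12.3 and 14.3 CPM after hepatectomy and at 3.40, 2.45 and 4.16 CPM after sham, and its difference was 1.71 ± 0.44. Lox, the enzyme that cross-links collagen, was scarce, at 2.84, 0.965 and 1.78 CPM against 0.0709, 0.367 and 0.833 CPM. Both genes were without overlap, but in Fbn1 the hepatectomy libraries with many endothelial transcripts were the high ones, and in Lox and the fibrillar collagens it was hepatectomy library 1.

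The collagen levels were set beside the markers of stellate cells and fibroblasts. Of 20 such markers, 5 were higher at an unadjusted p under 0.05 (2.9% of all genes) and all 5 are matrix genes: Col1a1, Col1a2, Col3a1, Lox and Timp1, an inhibitor of matrix metalloproteinases. In each of the 14 markers outside the matrix list, Reln, Lrat and Dcn among them, the operations overlapped with TMM scaling, and 1 of the 14, the transcription factor Hand2, was lower at an unadjusted p under 0.05. Their mean log2(CPM + 1) was 4.33, 4.07 and 4.13 after hepatectomy and 4.55, 3.85 and 4.07 after sham, and their median difference was -0.15. Reln, a marker of quiescent stellate cells, stood at 23.1, 28.9 and 20.4 CPM after hepatectomy and at 36.0, 21.8 and 27.1 CPM after sham. Whether the number of stellate cells in the fraction had a part in the collagen levels was not tested.

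The genes with the lowest p among those at 5 CPM or more and without overlap are 12 higher and 12 lower ones, none of which passed edgeR's test, with adjusted p from 0.0592 to 0.422 for the higher genes and from 0.422 to 0.804 for the lower. Il21r, the receptor for the T cell cytokine interleukin 21, stood at 9.60, 7.90 and 13.5 CPM after hepatectomy and at 1.28, 0.857 and 2.38 CPM after sham, a difference of 2.78 ± 0.51. Ednrb, an endothelin receptor, stood at 96.5, 61.9 and 88.9 CPM against 15.2, 8.93 and 26.4 CPM, a difference of 2.29 ± 0.54. For both genes the hepatectomy libraries lay close to each other whichever cell type's markers they held. Tubb6, a beta-tubulin, was at 40.3, 51.4 and 59.4 CPM against 11.9, 12.6 and 15.0 CPM. Nxpe5, a member of the neurexophilin and PC-esterase family, was at 31.1, 31.2 and 41.5 CPM against 4.89, 4.90 and 6.19 CPM. Ly6a, the stem cell antigen Sca-1, which is also an interferon-responsive gene of endothelium, was uneven after hepatectomy, at 9.69, 28.1 and 82.0 CPM, and stood at 5.89, 1.84 and 5.71 CPM after sham. Abcc1, an export pump for conjugated compounds, and Papss2, which makes the sulfate donor used in sulfation, differed by 1.14 ± 0.28 and 1.04 ± 0.23.

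**Figure D2:**
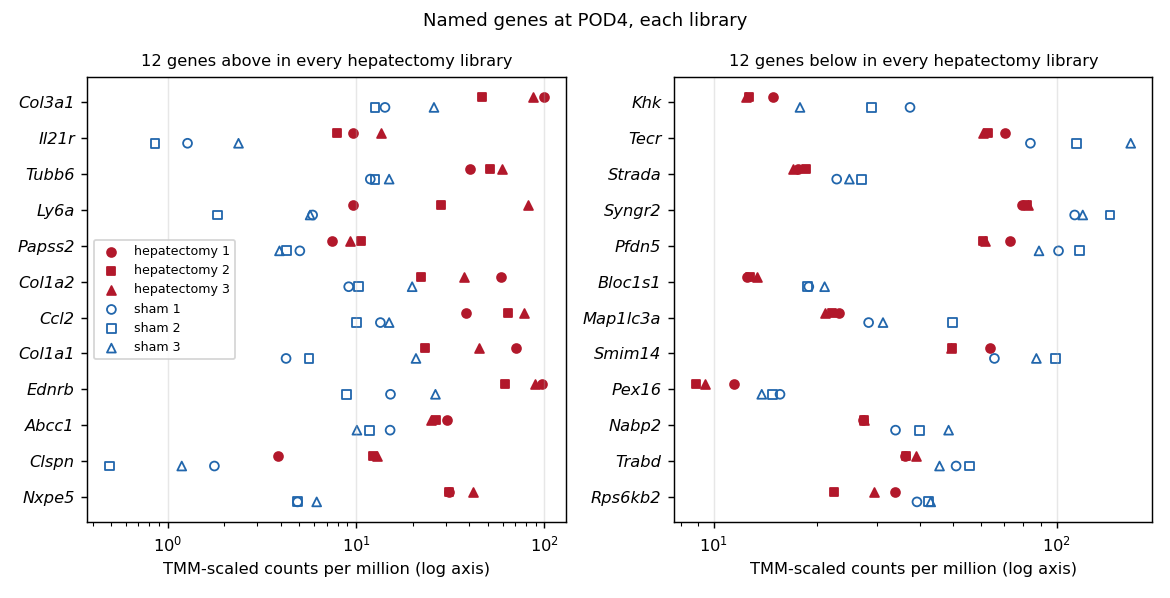
TMM-scaled CPM on a log axis for the 12 higher and the 12 lower genes of lowest p among those whose operations did not overlap, with 1 symbol for each of the 6 POD4 libraries, filled for hepatectomy and open for sham. In each gene the operations do not overlap, narrowly so in Col1a1 and Col1a2, and 0 of the 24 genes passed the adjusted test.

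The 12 lower genes had smaller differences, from -1.07 to -0.45 on the log2 scale. Khk, the kinase that starts fructose breakdown, stood at 14.9, 12.7 and 12.4 CPM after hepatectomy and at 37.4, 28.9 and 17.8 CPM after sham, a difference of -1.07 ± 0.27. Tecr, which completes the elongation of very long chain fatty acids, stood at 70.7, 62.9 and 60.8 CPM against 83.9, 114 and 165 CPM, a difference of -0.90 ± 0.25. In both genes the hepatectomy libraries lay close together and the sham libraries were spread. The others were Strada, Syngr2, Pfdn5, Bloc1s1, Map1lc3a, Smim14, Pex16, Nabp2, Trabd and Rps6kb2. The separation of the lower genes depended on the scaling: with library size alone, which moved the median of all genes to 0.20, 11 of the 12 overlapped and Tecr did not, and among the higher genes Ly6a and Papss2 overlapped.

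Genes of DNA replication made up the gene list with the highest median difference. All 40 members of the S phase list were tested, 27 were higher at an unadjusted p under 0.05 (2.9% of all genes were), 0 were lower, and the median difference was 1.62 on the log2 scale. In 39 members the difference was above 0. In 14 members every hepatectomy library lay above every sham library (2.69% of all genes). That count became 8 with library size alone (480 of 14325 genes) and 15 with DESeq2's size factors (387 of 14325 genes). None passed edgeR's test after adjustment over all genes. DESeq2 called 3 of them, Chaf1a, Gins2 and Mcm6, where it called 30 of all 14325 genes higher. The promoters of the 2 members with the lowest p that hold an E2F-type motif are shown, since E2F control is the feature that S phase genes are known to share. Capitals mark matches to TTTNNCGC on either strand, and the sequences are RefSeq promoters of GRCm38.p6, from 250 bases before to 50 after the gene start, read 5′ to 3′ on the gene's strand.
Mcm6 promoter, chr1:128359656-128359955, minus strand: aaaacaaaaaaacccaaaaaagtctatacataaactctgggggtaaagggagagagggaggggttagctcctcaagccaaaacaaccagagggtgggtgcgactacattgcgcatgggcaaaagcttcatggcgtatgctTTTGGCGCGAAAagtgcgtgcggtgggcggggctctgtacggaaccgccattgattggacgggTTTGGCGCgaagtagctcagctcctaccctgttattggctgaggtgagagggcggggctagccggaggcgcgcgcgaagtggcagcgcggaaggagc
Hells promoter, chr19:38930740-38931039, plus strand: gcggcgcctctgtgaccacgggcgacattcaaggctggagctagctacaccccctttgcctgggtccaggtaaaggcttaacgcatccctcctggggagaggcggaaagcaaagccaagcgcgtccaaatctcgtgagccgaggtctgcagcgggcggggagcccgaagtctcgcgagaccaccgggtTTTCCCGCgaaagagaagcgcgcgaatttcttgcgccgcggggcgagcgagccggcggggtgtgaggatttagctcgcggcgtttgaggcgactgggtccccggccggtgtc

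Mcm6 has 3 matches, of which 2 lie on opposite strands and overlap, and Hells has 1. The motif was in 14 of 34 S phase promoters that could be matched by symbol (41.2%), in 8.2% of the promoters of tested genes and in 5.3% of all 27025 promoters. Chaf1a had no match in this window. For each gene the first promoter listed was used. That of E2f1 (chr2:154569377-154569676, minus strand) had no match either. It lies inside the gene's GENCODE span (chr2:154559407-154569892), so the promoter at that gene start was not examined. A match is a description of the letters and no evidence of binding.

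Mcm6, a subunit of the helicase that opens replication origins, stood at 10.7, 45.4 and 42.8 CPM after hepatectomy and at 7.09, 2.82 and 5.59 CPM after sham. Its difference was 2.67 ± 0.67. Chaf1a, a chaperone that loads histones onto new DNA, stood at 3.68, 11.6 and 12.3 CPM against 1.49, 0.857 and 2.26 CPM. In both genes hepatectomy libraries 2 and 3 were far above the rest, and library 1 was a little above the sham libraries. E2f1, a transcription factor that drives S phase entry, stood at 6.93, 23.9 and 23.8 CPM against 4.61, 4.28 and 4.40 CPM. Hells, a chromatin remodelling helicase of dividing cells, stood at 2.26, 9.05 and 11.2 CPM against 1.91, 1.59 and 1.43 CPM. Clspn, which carries the replication checkpoint signal, was 1 of the 12 higher genes and stood at 3.84, 12.4 and 12.96 CPM against 1.77, 0.490 and 1.19 CPM.

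Over the S phase list, hepatectomy libraries 2 and 3 both lay above every sham library in 37 of 40 members, and hepatectomy library 1 did so in 14. Hepatectomy library 1 was below both others in 39 members. The mean log2(CPM + 1) of the list was 2.77, 3.95 and 4.01 after hepatectomy and 2.54, 2.25 and 2.54 after sham. The high libraries were thus 2 of the 3 rich in endothelial transcripts, and sham library 1, which had the highest endothelial score of the 6, was not among them. Among the libraries rich in endothelial transcripts, where sham library 1 is the only sham library, the median difference was 1.97. Among those poor in them, where hepatectomy library 1 is the only hepatectomy library, it was 0.51.

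Genes of G2 and M phase were less even. Of 44 tested, 18 were higher at an unadjusted p under 0.05 (2.9% of all genes) and 0 lower, and the median difference was 1.11, but in only 1 of them, Anln, did the operations not overlap with TMM scaling (2.69% of all genes lay above). Anln, a scaffold of the cleavage furrow, stood at 7.02, 16.3 and 18.4 CPM after hepatectomy and at 1.49, 3.06 and 6.30 CPM after sham. In 39 of the 44 genes sham library 3 was the highest sham library. The count of 18 became 34 without sham library 3, where 462 of 14654 genes were higher at that p. It became 8 without hepatectomy library 2 (265 of 14632 genes) and 2 without hepatectomy library 3 (205 of 14625). It became 3 without sham library 1 (3029 of 14651) and 4 without sham library 2 (280 of 14630). The median difference was 3.12 among the libraries rich in endothelial transcripts and -0.44 among those poor in them, again with 1 library alone in an arm of each.

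**Figure D3:**
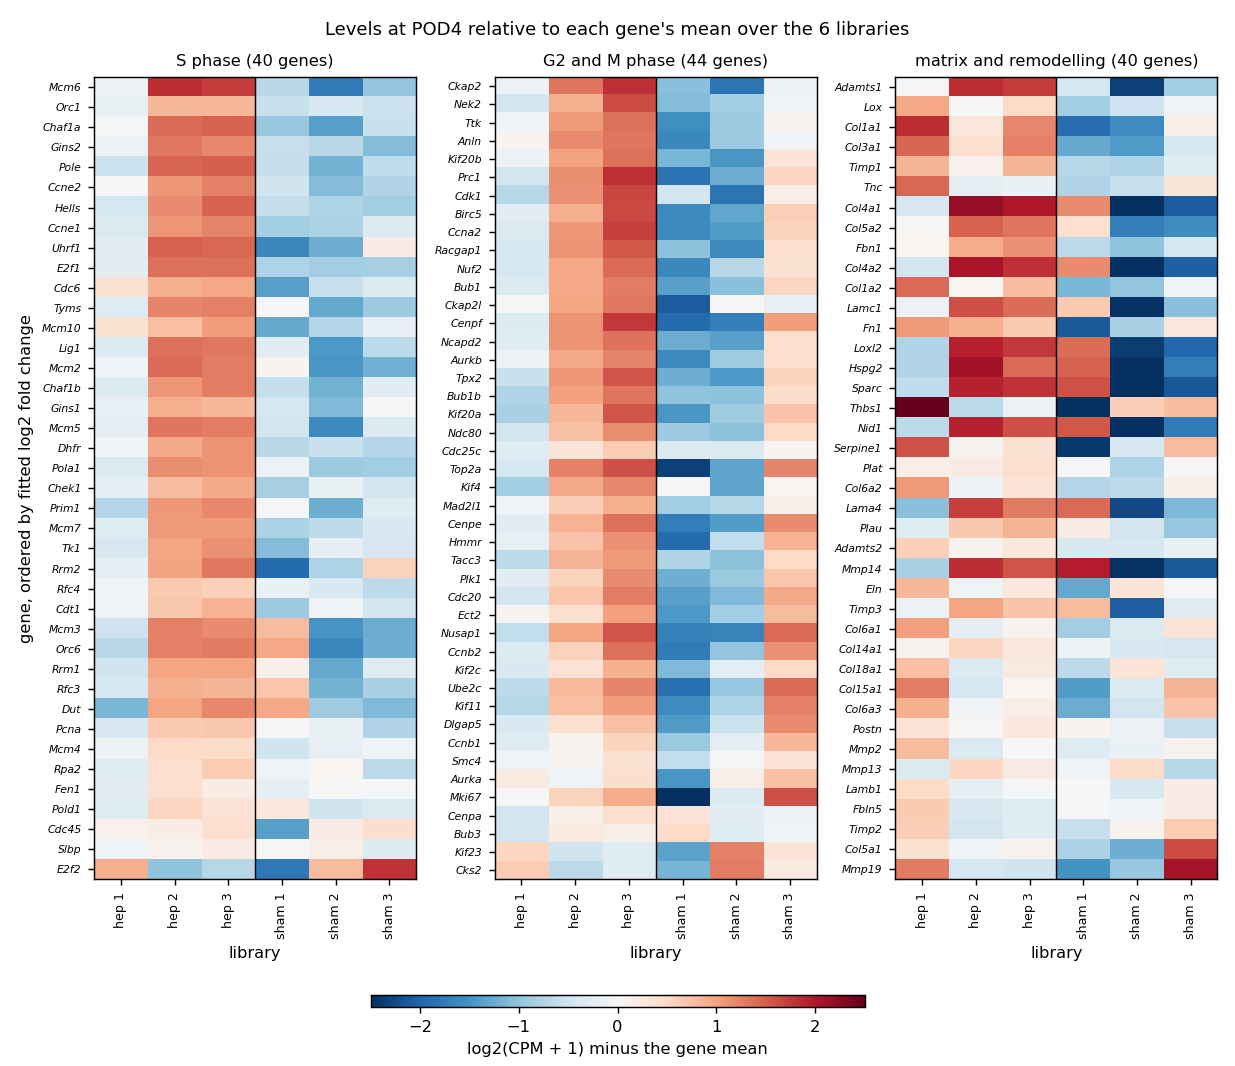
Levels of the tested S phase, G2 and M phase, and matrix and remodelling genes in the 6 POD4 libraries, as log2(CPM + 1) minus the gene's mean over the 6, with red above and blue below that mean and genes ordered by fitted difference. S phase genes are highest in hepatectomy libraries 2 and 3, G2 and M phase genes are also raised in sham library 3, and the fibrillar collagens near the top of the matrix panel are highest in hepatectomy library 1.

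Chemokines that recruit monocytes stood among the higher genes. Ccl2, the main ligand of the receptor Ccr2, was at 38.5, 64.2 and 77.8 CPM after hepatectomy and at 13.5, 10.04 and 15.0 CPM after sham. The difference was 2.23 ± 0.51, with an adjusted p of 0.422 in edgeR's test. Ccl7, another ligand of Ccr2, was at 24.9, 56.5 and 59.9 CPM against 11.8, 7.34 and 12.5 CPM. Neither gene overlapped between operations, and in both the libraries rich in endothelial transcripts were the higher ones after hepatectomy but not after sham. Il1a, an alarm cytokine, was at 169, 284 and 276 CPM against 98.0, 90.7 and 48.3 CPM, also without overlap. Among the libraries rich in endothelial transcripts the difference for Ccl7 was 2.30 and among those poor in them 1.33. Each of these comparisons has 1 library alone in an arm.

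Of 41 inflammatory cytokine and NF-kB genes, 5 were higher at an unadjusted p under 0.05 (2.9% of all genes) and 0 lower, and the median difference was 0.04. The monocyte markers showed 4 of 17 higher at an unadjusted p under 0.05, beside the same 2.9%, and 0 lower. Ccr2 itself stood at 19.4, 40.9 and 49.9 CPM after hepatectomy and at 11.4, 6.12 and 8.56 CPM after sham, a difference of 2.07 ± 0.59. F13a1, the coagulation factor XIII subunit made by monocytes and macrophages, stood at 144, 126 and 156 CPM against 29.2, 11.4 and 70.9 CPM. Ms4a6c, a membrane protein of monocytes, stood at 18.6, 17.5 and 23.6 CPM against 5.03, 9.30 and 12.5 CPM. These 3 did not overlap, while Ly6c2 and Plac8, further monocyte markers, did. The list did not move as a whole, as 9 of the 17 markers had a difference above 0, where 48.6% of all genes had one. Among those below 0 were Chil3 at -2.71 ± 1.41, Nr4a1 at -1.51 ± 0.90, Spn at -1.07 ± 0.81 and Ly6c2 at -0.97 ± 0.94, all with overlap. The mean log2(CPM + 1) over the 17 markers ran from 5.37 to 6.11 after hepatectomy and from 4.23 to 6.04 after sham. Whether more monocytes in the fraction had a part in the chemokine levels was not tested.

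Arg1, the arginine-degrading enzyme by which suppressor cells starve T cells, stood at 175.5, 94.5 and 123 CPM after hepatectomy and at 10.4, 17.5 and 65.1 CPM after sham, a difference of 2.08 ± 0.75. It was the member of the suppressive effector list without overlap. That list of 31 tested genes had 1 member higher and 0 lower at an unadjusted p under 0.05, a share near the 2.9% of all genes, and a median difference of -0.41. Marco, a scavenger receptor of macrophages, stood at 42.2, 58.5 and 49.4 CPM against 6.81, 21.5 and 26.4 CPM, and its unadjusted p in edgeR's test was 0.0848.

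Of 64 interferon-stimulated genes, 9 were higher at an unadjusted p under 0.05 (2.9% of all genes) and 0 lower (1.91%), and the median difference was 0.26. The count of 9 became 3 without hepatectomy library 3, where 205 of 14625 genes were higher at that p. It was also 3 without sham library 3, where 462 of 14654 genes were. Irgm1, an immunity-related GTPase, stood at 83.4, 107 and 156 CPM after hepatectomy and at 65.4, 56.1 and 43.5 CPM after sham. Gbp3, a guanylate-binding protein, stood at 21.0, 29.9 and 57.0 CPM against 18.1, 16.8 and 8.44 CPM. Eif2ak2, the RNA-sensing kinase PKR, stood at 22.9, 31.1 and 38.5 CPM against 18.2, 18.5 and 16.9 CPM. In all 3 hepatectomy library 3 was the highest, and the lowest hepatectomy library lay close to the sham libraries. The guanylate-binding proteins have near-identical copies between which reads can be split, so the level of a single one is uncertain.

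Granule genes of neutrophils were higher in the libraries rich in neutrophil transcripts, but unevenly so. The mean log2(CPM + 1) of 26 secondary and tertiary granule genes was 8.95, 6.66 and 7.05 after hepatectomy. After sham it was 5.96, 8.38 and 10.22. Cxcr2 varied less among the libraries rich in neutrophil transcripts, at 3154 CPM in hepatectomy library 1 and 2714 and 3447 CPM in sham libraries 2 and 3. Ltf, the iron-binding protein lactoferrin of secondary granules, stood at 964, 161 and 221 CPM after hepatectomy and at 109, 984 and 8600 CPM after sham. In Ngp, a granule protein, and Camp, the antimicrobial cathelicidin, sham library 3 was likewise far above the rest. All 20 neutrophil markers had a difference below 0 and 3 of them, Ltf, Ngp and Camp, an unadjusted p under 0.05 (1.91% of all genes), but the operations overlapped in all 20. For Ltf the difference was -2.85 ± 1.22 over the 6 libraries and 0.80 among the 3 rich in endothelial transcripts, with sham library 1 the only sham library there. Without sham library 3 the median difference of the neutrophil markers went from -0.71 to 0.10.

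Plasma cell transcripts stood at low levels after hepatectomy in the libraries rich in endothelium. Igha, the constant region of immunoglobulin A, was at 305, 31.7 and 51.6 CPM after hepatectomy and at 214, 1769 and 413 CPM after sham, and Jchain, which joins its units, was at 53.1, 8.09 and 12.6 CPM against 40.2, 323 and 77.2 CPM. Of 11 plasma cell markers, 5 were lower at an unadjusted p under 0.05 (1.91% of all genes) and 0 higher. The operations overlapped in all 11 with TMM scaling. With library size alone 4 of the 11 lay below without overlap, where 131 of 14325 genes did. Without sham library 2 the count of 5 was 0, where 279 of 14630 genes were lower at an unadjusted p under 0.05.

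The endothelial score was then put into the fit as a covariate, so that the operations were compared at an equal score under the model. The model assumes 1 slope per gene, shared by all 24 libraries and 8 groups, and the results of this fit rest on that. The score is circular for endothelial genes, since it is made from them. In that fit edgeR's quasi-likelihood test with Benjamini-Hochberg adjustment called 22 genes higher (0.154% of those tested) and 4 lower (0.0279%). Genes of matrix and its handling rose: Col1a1, Col1a2, Col3a1, Col4a1, Col4a2 and Col5a2 were 6 of the 22, of 40 tested matrix genes. Col3a1 had a difference of 2.15 ± 0.34 and an adjusted p of 0.00644. The fit with the covariate is 1 of 19 alternatives to the fit without it, and Col3a1 passed the threshold in 8 of those 19. The covariate fit itself was not repeated with libraries left out or with other scalings. In this fit 53.3% of all genes had a difference above 0. Thy1, Il21r and Papss2 also passed. Adam12, a metalloprotease of remodelling tissue, and Cald1, an actin-binding protein of contractile cells, passed as well.

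The genes that passed with the covariate differed in how they looked without it. Col4a1, the major chain of basement membrane collagen, stood at 213, 1295 and 1126 CPM after hepatectomy and at 641, 36.8 and 66.3 CPM after sham. Here the operations overlapped, and the difference was 1.82 ± 1.00 without the score and 1.25 ± 0.16 with it, at an adjusted p of 0.00299 in the edgeR fit with the covariate. Of the 19 alternatives to the fit without the covariate, this fit among them, Col4a1 passed the threshold in 2. Col4a1 and its neighbour Col4a2 (chr8:11198423-11312826, minus strand, and chr8:11312805-11449287, plus strand) meet head to head, so reads at their starts may not be separable. Rab3b, a GTPase of regulated secretion, stood at 15.0, 49.8 and 49.4 CPM against 16.5, 0.857 and 1.78 CPM. Within either kind of library these genes stood higher after hepatectomy, with 1 library alone in an arm of each comparison. The differences for Col4a1 were 0.92 among libraries rich in endothelial transcripts and 2.05 among those poor in them. Endothelial content was not equal among the poor ones, with a score of 7.48 in hepatectomy library 1 and 5.99 and 6.70 in sham libraries 2 and 3.

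The 4 genes that fell with the covariate were Cntfr, Twist1 and the loci 1110018N20Rik and RP24-358M18.2. Cntfr, a receptor subunit for ciliary neurotrophic factor, stood at 6.68, 47.6 and 37.6 CPM after hepatectomy and at 159, 4.41 and 7.49 CPM after sham. Twist1, a transcription factor of mesenchymal cells, stood at 1.09, 7.72 and 3.71 CPM against 22.1, 1.59 and 1.55 CPM. Sham library 1 held the highest level of both. In the fit without the covariate the differences were -0.89 for Cntfr and -1.02 for Twist1, and without sham library 1 they were 2.38 and 1.44.

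The score moved some lists and left others in place. The S phase median was 1.62 without it and 1.18 with it, with 27 and 23 members at an unadjusted p under 0.05 and 0 called in either fit. Lists of neutrophil genes moved up with the score, the neutrophil markers from -0.71 to 0.40 and the neutrophil receptors from -0.56 to 0.49. The suppressive effectors moved from -0.41 to 0.40. The inflammatory cytokine list moved from 0.04 to 0.98, with 19 of 41 members higher at an unadjusted p under 0.05 where 6.55% of all genes were. Interferon-stimulated genes moved from 0.26 to 0.60, with 27 of 64 members higher and 1, Gbp2, called. Genes of the respiratory chain lay at -0.12 and -0.29, with 12 of 41 lower at an unadjusted p under 0.05 where 5.37% of all genes were.

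**Figure D4:**
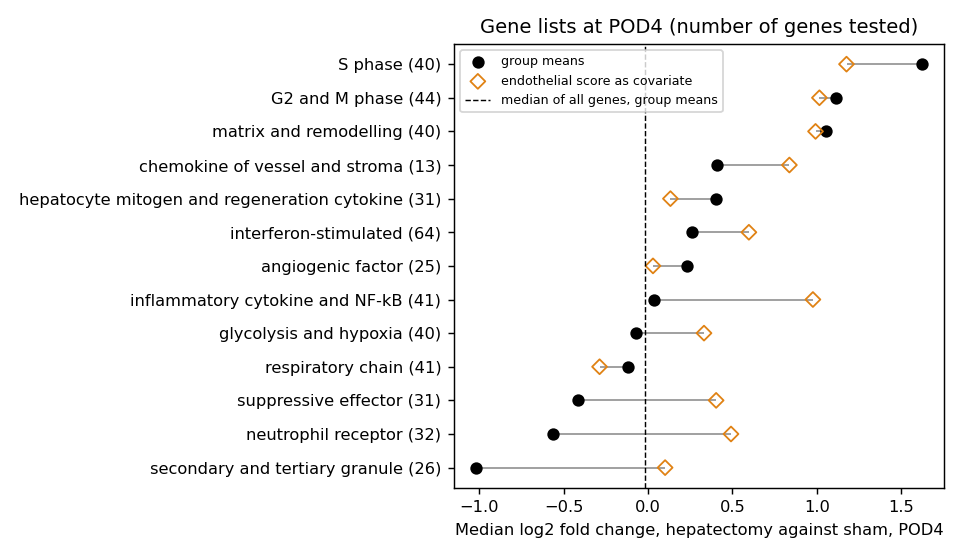
Median log2 difference between hepatectomy and sham on POD4 for 13 gene lists, without (black circles) and with (orange diamonds) the endothelial score as a covariate, and the median of all genes tested as a dashed line. The S phase, G2 and M phase, and matrix lists lie near or above 1 in both fits, and the lists of neutrophil genes cross 0 between them.

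Factors that act on hepatocytes and vessels were looked at for their own sake. Wnt9b, a Wnt ligand of central vein endothelium, stood at 17.0, 19.9 and 16.7 CPM after hepatectomy and at 13.7, 5.87 and 5.35 CPM after sham, without overlap, a difference of 1.09 ± 0.49. Hgf, the hepatocyte growth factor, stood at 23.1, 41.5 and 44.1 CPM against 15.5, 21.3 and 23.7 CPM and overlapped. Of the 31 tested mitogens and regeneration cytokines, Wnt9b was the 1 higher at an unadjusted p under 0.05, a share near the 2.9% of all genes, and 0 were lower. Il6, which primes hepatocytes to divide, was scarce, at 4.18, 3.35 and 4.53 CPM against 0.284, 2.82 and 3.33 CPM. Angptl4, a lipase inhibitor of the angiopoietin-like family, stood at 3.09, 2.94 and 4.82 CPM against 0.496, 1.96 and 1.19 CPM, and it was the 1 angiogenic factor of 25 tested at an unadjusted p under 0.05, a share also near that of all genes (2.9%).

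POD3 had hepatectomy and sham libraries of its own, so the 2 days share no control. The endothelial score on POD3 was 5.95, 9.99 and 10.2 after hepatectomy and 10.14, 10.22 and 10.07 after sham. Hepatectomy library 1 was thus poor in endothelial transcripts on both days, whereas sham libraries 2 and 3 were so on POD4 only. Whether composition had a part in differences between the days was not tested. Only 3 genes rose at POD3 and 0 fell in edgeR's quasi-likelihood test with Benjamini-Hochberg adjustment (0.0209% and 0% of 14325), and they were Col3a1, Col1a1 and Thy1, with adjusted p of 0.0298, 0.0404 and 0.0404. On POD3 the level of Col3a1 was 72.3, 104.5 and 72.6 CPM after hepatectomy and 15.8, 15.3 and 16.4 CPM after sham. The sham libraries of POD3 were closer to each other than those of POD4, and the hepatectomy levels of the 2 days lay in the same range. The difference for Col3a1 was 2.39 ± 0.36 at POD3 and 2.14 ± 0.35 at POD4, and for Col1a1 it was 3.24 ± 0.54 and 2.18 ± 0.52.

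The test of the difference between the effects on the 2 days called 0 of 14325 genes (0%), and 519 (3.62%) had an unadjusted p under 0.05. It was -0.25 ± 0.48 for Col3a1 and -1.06 ± 0.70 for Col1a1. All 12 of the higher genes also had a difference above 0 at POD3, from 0.64 to 3.24 on the log2 scale, and 6 of the 12 lower genes had one below 0 there. Mcm6 on POD3 was at 8.07, 64.6 and 19.3 CPM after hepatectomy and at 6.26, 5.10 and 3.35 CPM after sham, without overlap. The median of the S phase list was 1.48 at POD3 and 1.62 at POD4, and 0 of its 40 members had an unadjusted p under 0.05 for the difference between days.

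The 8 genes with the lowest p for that difference included Saa3 and Id2. Saa3, an acute-phase serum amyloid, was at 1864, 45.5 and 115 CPM against 4.97, 9.55 and 13.5 CPM on POD3, and at 126, 37.5 and 56.9 CPM against 9.004, 15.8 and 64.0 CPM on POD4. Id2, an inhibitor of helix-loop-helix factors, stood at 236, 116 and 160 CPM against 109.5, 108 and 99.2 CPM on POD3, and at 131, 129 and 139 CPM against 157, 177 and 200 CPM on POD4. For Id2 the hepatectomy libraries lay above the sham libraries on POD3 and below them on POD4. In both genes the highest POD3 level was in hepatectomy library 1, which was poor in endothelial and rich in neutrophil transcripts. The difference between days was -1.12 ± 0.32 for Id2 and -4.86 ± 1.51 for Saa3, both with an adjusted p of 0.904 in edgeR's test.

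**Figure D5:**
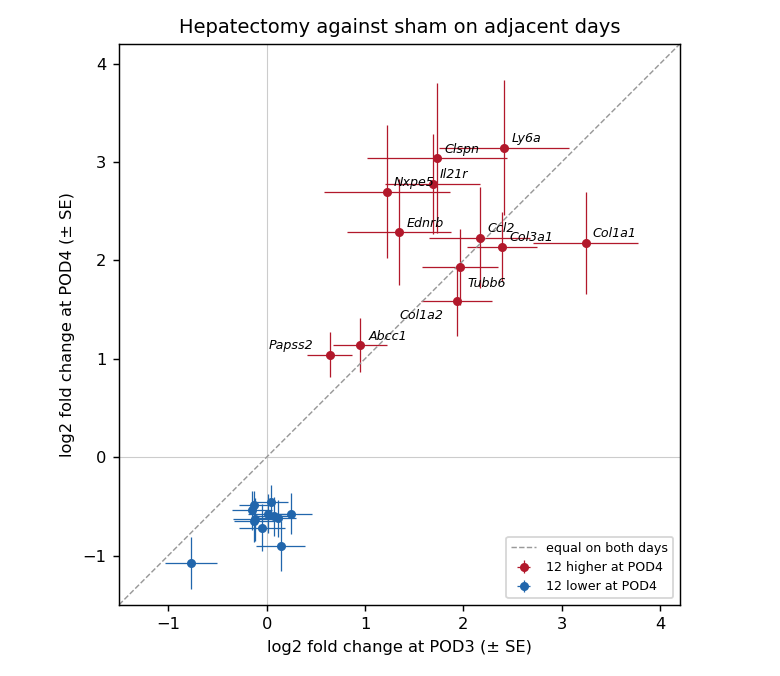
Log2 difference between hepatectomy and sham at POD3 (horizontal axis) and POD4 (vertical axis), each ± SE, for the 12 higher (red, named) and 12 lower (blue) genes of POD4, with a dashed line of equality. The higher genes lie above 0 on both days, and the lower genes run from -0.77 to 0.25 at POD3.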

How the data were processed

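The authors deposited raw counts, 1 table column per library and 1 row per gene symbol. Per the submitters' processing notes, the tools were cutadapt, STAR 2.4.2a and HTSeq, with the GRCm38 build. Which annotation release, strand setting and filters were used is not given in the sources used here, so reads of overlapping and antisense genes may not be separable. The 46477 symbols include 27740 with at least 1 count, and the totals of the 24 libraries ran from 10390216 to 16949088 counts.

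Differences were tested by the quasi-likelihood method of edgeR 4.0.16 (R 4.3.3), with all 24 libraries in the model as 8 groups of operation and day, which leaves 16 residual degrees of freedom, with TMM scaling and filterByExpr (14325 genes kept). Tests were two-sided, with Benjamini-Hochberg adjustment over all genes at 0.05. The contrasts were hepatectomy against sham at POD4, the same at POD3, and the first minus the second. Each SE was obtained from the fold change and its F value and is approximate. The model was tested on simulated counts. Levels are TMM-scaled CPM computed from the deposited counts, and list levels are means of log2(CPM + 1).

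Named genes were to be those past the threshold whose operations did not overlap, at 5 CPM or more, 12 in each direction; as 0 passed, the places were filled with the genes of lowest p that met the other conditions. Added to these were up to 4 genes of lowest p per list, a panel of neutrophil and other marker genes, the 8 of lowest p for the difference between days, and the 8 of lowest p in each direction with the endothelial covariate. Other genes are named as markers, as members of a count, or as chosen after their values were seen. The genes, lists and tests were chosen with earlier results of these data known. The 23 gene lists and 16 marker lists are described by counts and medians, with no test of a list.

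Alternatives were DESeq2 1.42.0, limma 3.58.1 voom with and without quality weights, other scalings and filters, POD4 without the other days, a replicate block, the mean level of 19 endothelial markers as a covariate (15 residual degrees of freedom), the libraries rich or poor in endothelial transcripts, each library left out, and counts thinned to the smallest library. Voom without weights and the thinning were chosen after seeing the data. Coordinates are from GENCODE M21, which holds 13687 of the tested symbols (95.5%).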

Additional observations from a re-analysis of the deposited data

How the results depend on the processing

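The labels number the replicates without saying whether the numbers pair libraries across operations. Same-numbered libraries deviated in opposite directions from their group means, with correlations across genes of -0.902, -0.728 and -0.668. In each such pair 1 library was rich and the other poor in endothelial transcripts, so these signs cannot show whether the pairs were handled together. A replicate block within day left 0 genes called either way and 400 at an unadjusted p under 0.05, in place of 689. Counts of 0 higher, 0 lower and 0 differing from POD3 stayed at 0 with DESeq2's size factors, with library size alone, without a filter on low counts, with POD4 fitted without the other days, and in the libraries rich or poor in endothelial transcripts. Leaving out each library gave from 0 to 2 higher, 0 lower and 0 differing. There were 2 higher under a filter of 5 CPM (Col3a1 and Thy1), 2 with voom without weights and 2 after thinning. DESeq2 gave 30 higher and 4 lower, and the endothelial covariate 22 higher, 4 lower and 41 differing. Voom with quality weights gave 3989 higher, 3261 lower and 4389 differing, with weights from 0.071 for sham library 1 to 8.01 for hepatectomy library 3; the cause was not tested. Cntfr turned from -0.89 to 1.25 under the block, 0.17 in the libraries poor in endothelial transcripts, 2.46 and 0.21 with voom with and without weights, and ran from -1.44 to 2.38 over libraries left out. Twist1 turned from -1.02 to 0.15 under the block and 1.10 with weighted voom, and ran from -1.81 to 1.44. Ltf and Ngp turned to 0.80 and 0.85 in the libraries rich in endothelial transcripts. Thinning to the smallest library, which evens out the depth gap between the operations, left 645 genes at an unadjusted p under 0.05.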
